A study of Ovis aries with 17 samples.

Results

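PTGS2, prostaglandin-endoperoxide synthase 2, had 2 probes on the sheep array that carry a name of the gene, one filed under the symbol PTGS2 and one under the older name PGHS2, which a RefSeq gene table also lists as a synonym of PTGS2. The 2 probes were chosen by name among 15060 probes, after the gene had stood out for its level in macrophages in earlier results on these same arrays, so their levels by subset are given as a description with no test between macrophages and the other subsets. The question was how the enzyme's transcript was distributed over sheep mononuclear phagocyte subsets and whether its 2 probes gave the same answer.

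The 17 arrays each held 1 RNA sample, taken from control sheep or from culture. B lymphocytes (B, 4 arrays) were sorted from spleen with an anti-ruminant B cell antibody. Macrophages (MP, 3 arrays) were sorted from spleen by CD14 alone and could thus include monocytes. Plasmacytoid dendritic cells (pDC, 3 arrays), XCR1- DC (3 arrays) and XCR1+ DC (1 array) were sorted from low density blood cells, the XCR1- and XCR1+ subsets by CADM1 and CD172 and not by XCR1 itself. MoDC (3 arrays) came from 3 separate GM-CSF cultures. By the source text these started from bone marrow cells, although their name stands for monocyte-derived. The study's methods describe its sheep as females of the Prealpe breed, and the labels give no age. Small RNA yields were combined across sheep, on arrays that the labels do not name, so an array was not always 1 animal.

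PTGS2 is the inducible one of the paired cyclooxygenases that convert arachidonic acid into prostaglandin H2, the common precursor from which terminal synthases make the prostaglandins and thromboxane. PTGS1 is its constitutive counterpart. In monocytes and macrophages PTGS2 is known as an immediate response gene to microbial and cytokine signals, and its transcript is short-lived. Prostaglandin E2, a main product in these cells, is known to act on cytokine production.

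The sequences of the 2 probes were compared first, because they decide what agreement between the probes can mean. The PTGS2 and PGHS2 probes had the same 60 bases with 0 mismatches, so they were 1 oligonucleotide printed at 2 places on each array, and not 2 independent probes of the gene. No other probe had this sequence. A search for any shared run of 20 bases found 2 further probe names, OA_S2E_ENSG73756_R and OA_S2E_ENSG73756_F, which again shared a single sequence and which the files pair with no gene symbol. Aligned to the PTGS2 probe, that sequence matched 53 of 57 aligned bases. Bases 9 to 38 of each probe are shown to make the identity and the near identity visible, with capitals marking the bases that had no identical partner in the alignment (inserted bases in a repeat can be placed in more than 1 equivalent way).

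PTGS2: gggaatttggaatatgTgtgttttggtgcc

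PGHS2: gggaatttggaatatgTgtgttttggtgcc

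OA_S2E_ENSG73756_R: gggaatttggAaTatatgAgtgttttggtg

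Values are on a log2 scale on which 0 is the 75th percentile of all probe intensities of an array after background correction, and a step of 1 is a doubling. MP had the highest signal of every subset. In MP replicates 1, 2 and 3 the PTGS2 probe read 5.77, 5.81 and 5.25 and the PGHS2 probe 6.05, 5.72 and 5.30. These correspond to intensities between 10194 and 32584, and no spot of any array was saturated. The MP mean was 5.61 ± 0.32 (SD, n = 3) for the PTGS2 probe and 5.69 ± 0.37 for the PGHS2 probe, a narrow spread.

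B arrays came next and differed widely from each other. The PTGS2 probe read 2.23, 0.40, -1.65 and 2.04 in B replicates 1 to 4 and the PGHS2 probe read 2.35, 0.62, -1.50 and 2.24. Replicates 1 and 4 stood at about the same level, and replicate 3 lay 3.87 below the highest array on the mean of the 2 probes. MoDC arrays were close to the 75th percentile, with the PTGS2 probe at -0.58, -0.69 and 0.10 and the PGHS2 probe at -0.58, -0.80 and 0.20.

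XCR1- DC arrays read -0.39, -2.14 and -1.86 with the PTGS2 probe and -0.22, -1.89 and -1.52 with the PGHS2 probe. The single XCR1+ DC array read -3.05 and -2.50. The pDC had the lowest mean and the widest spread, at -6.66, -5.66 and -2.67 with the PTGS2 probe and at -7.21, -5.21 and -2.70 with the PGHS2 probe. In pDC the PTGS2 probe was well above background on 1 of 3 arrays and the PGHS2 probe on 2 of 3, so the 2 lower pDC arrays carry little more than an upper limit. On the 14 arrays outside pDC both probes stood well above background.

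On the mean of the 2 probes the order of the subsets was MP (5.65), B (0.84), MoDC (-0.39), XCR1- DC (-1.34), XCR1+ DC (-2.78) and pDC (-5.02). The lowest MP array exceeded the highest array of any other subset, B replicate 1, by 2.98 or 7.92-fold. The difference of means between MP and B was 4.81 (28.1-fold), between MP and MoDC 6.04 (65.9-fold) and between MP and XCR1- DC 6.99 (127-fold). Between MP and the XCR1+ DC array it was 8.43, with no replicate on the XCR1+ side. The MP level is what singled the gene out, and these differences are therefore only described. In bulk RNA, a lower value can reflect fewer cells that hold the transcript or less of it per cell, and the 2 cannot be told apart here.

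MP, B, pDC and MoDC arrays of the same number shared a slide for numbers 1 to 3, while B replicate 4, XCR1- DC and XCR1+ DC were on a slide of their own. Within slides 1, 2 and 3, MP exceeded B by 3.62, 5.26 and 6.85 on the mean of the 2 probes, and MoDC by 6.49, 6.51 and 5.13. It exceeded pDC by at least 10.9 on slide 1, where both pDC spots were at background and the lowest signal well above background on that array stands in for them, by 11.2 on slide 2, where 1 of the 2 pDC spots was at background, and by 7.96 on slide 3. MP and the XCR1 subsets shared no slide and no version of the feature extraction software, so for these pairs slide, software and subset cannot be told apart. Source went with subset as well. MP and B came from spleen, pDC and the XCR1 subsets from blood, and MoDC from culture. Between these sources, here and in the tests below, tissue or culture and cell type cannot be told apart.

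Pairs of subsets without MP were tested with limma over the 11549 probes kept (a call needed at least a 2-fold difference and an adjusted p under 0.05 by Benjamini-Hochberg). The pDC level was below that of each of the other 3 subsets, with both spots. B exceeded pDC by 5.75 (SE 0.94, limma adjusted p = 0.00114) with the PTGS2 probe and by 5.97 (SE 0.97, limma adjusted p = 0.00114) with the PGHS2 probe, in a pair in which 9.25% of all probes were called. MoDC exceeded pDC by 4.61 (SE 1.00, limma adjusted p = 0.0022) and 4.65 (SE 1.04, limma adjusted p = 0.00267), against 33.1% of all probes called. In pDC the PTGS2 spot was above background on 1 of 3 arrays and the PGHS2 spot on 2 of 3, so these sizes rest in part on spots at background. With such spots set to the floor of their array, an alternative chosen after seeing the data, they were 5.16 and 5.23 for B and 4.01 and 3.91 for MoDC. The calls remained with a normexp background, but the sizes were 2.98 and 3.40 for B over pDC and 1.97 and 2.21 for MoDC over pDC. With the series table they were 4.10 and 4.80, and 2.96 and 3.43. Both calls also remained with slide as a block. There B exceeded pDC by 5.32 and 5.53 (limma adjusted p = 0.00839 and 0.00845). MoDC exceeded pDC by 4.61 and 4.65 (limma adjusted p = 0.00463 and 0.00553). On slides 1, 2 and 3 separately, B exceeded pDC by at least 7.29, by 5.94 and by 1.11 and MoDC exceeded pDC by at least 4.42, by 4.69 and by 2.84, so both directions held on each slide. On slide 2 the PTGS2 spot of pDC was at background, so the sizes there rest in part on it.

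XCR1- DC exceeded pDC by 3.53 (SE 1.00, limma adjusted p = 0.0208) and 3.83 (SE 1.04, limma adjusted p = 0.0164), against 20.4% of all probes called. This call was lost with both probes when the slide entered as a block (1.82 and 2.08, adjusted p = 0.796 and 0.758), with a normexp background (1.13 and 1.54, adjusted p = 0.274 and 0.134) and when pDC replicate 1, pDC replicate 2 or XCR1- DC replicate 1 was left out (adjusted p from 0.0522 to 0.100). It was also lost with slide as a random block (pDC minus XCR1- DC -3.14 and -3.43, adjusted p = 0.091 and 0.0753). For the PTGS2 probe it was lost with the series table too (1.98, adjusted p = 0.061). These subsets shared no slide.

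No pair among B, MoDC and XCR1- DC was called. B exceeded MoDC by 1.14 (SE 0.94, limma adjusted p = 0.356) and 1.32 (SE 0.97, limma adjusted p = 0.302), and within slides the difference was 2.87, 1.25 and -1.73, with the opposite sign on the slide of B replicate 3. MoDC exceeded XCR1- DC by 1.07 (SE 1.00, limma adjusted p = 0.421) and 0.82 (SE 1.04, limma adjusted p = 0.562). B exceeded XCR1- DC by 2.22 (SE 0.94, limma adjusted p = 0.0999) and 2.14 (SE 0.97, limma adjusted p = 0.125), a difference that passed the threshold with both probes once B replicate 3 was left out (3.02 and 2.95, adjusted p = 0.0193 and 0.0278) and with a normexp background (1.85 and 1.86, adjusted p = 0.0344 and 0.0418), and with the PTGS2 probe alone in the series table (2.12, adjusted p = 0.031). The shares of all probes called in these 3 pairs were 36.2%, 33.6% and 23.3%. With slide as a block MoDC exceeded XCR1- DC by 2.79 and 2.56 (limma adjusted p = 0.383 and 0.446). B then exceeded XCR1- DC by 3.50 and 3.45 (limma adjusted p = 0.203 and 0.233). These differences were larger and still not called. On their shared slide, B replicate 4 exceeded XCR1- DC replicates 1, 2 and 3 by 2.45, 4.15 and 3.83. Of the 12 tests of 2 probes in 6 pairs, 6 were called, and since both spots carry 1 oligonucleotide this amounts to 3 of 6 pairs.

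The 2 spots gave nearly the same value on each array. The gap, PTGS2 probe minus PGHS2 probe on the same array, ran from -0.56 to 0.11 with a median of -0.15 over the 15 arrays on which both spots were well above background, and the PTGS2 spot was the lower one on 11 of these 15. The widest gap among them was that of the XCR1+ DC array, which was also the dimmest of them. On the 2 pDC arrays with a spot at background the gap was 0.54 and -0.45. Across the 17 arrays the 2 spots correlated at r = 0.998, a value dominated by the wide range of levels and given as a description.

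The mean gap was -0.17 ± 0.05 (SD, n = 4) in B, -0.08 ± 0.19 (n = 3) in MP, 0.00 ± 0.11 (n = 3) in MoDC, -0.25 ± 0.09 (n = 3) in XCR1- DC and 0.04 ± 0.50 (n = 3) in pDC. In an exact two-sided permutation test of each subset against all other arrays, none of the 5 subsets passed the threshold (unadjusted exact p from 0.207 to 0.743, adjusted over the 5 from 0.547 to 0.743). With a normexp background and with the series table, the pDC passed it, with a gap 0.35 and 0.70 above that of the other arrays (exact permutation adjusted p = 0.0147 each), in a subset where the PTGS2 probe was well above background on 1 of 3 arrays. All 5 arrays of the slide that held XCR1- DC, XCR1+ DC and B replicate 4 had a negative gap, from -0.56 to -0.17. On the other slides 2 of 4, 2 of 4 and 3 of 4 arrays did.

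The SD of 1 spot, taken from the gaps on the 15 arrays above background, was 0.16, which leaves out spots at background and says nothing of differences between samples. The SD between replicate arrays on the mean of the 2 spots was 1.80 in B, 0.91 in XCR1- DC, 0.47 in MoDC and 0.33 in MP. The order of the B arrays and that of the XCR1- DC arrays was the same with either spot.

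Other oligonucleotides printed more than once provide the scale for this gap. Of the array's sequences, 228 stood under more than 1 probe name, and 120 other pairs had both spots well above background on at least 14 arrays. The SD of the gap over arrays was 0.176 for PTGS2 and PGHS2 and had a median of 0.156 (25th to 75th percentile 0.0958 to 0.218) over the other pairs, 74 of which were tighter and 46 looser. The median size of the gap was larger than in most pairs, at 0.15 against a median of 0.0862, and 98 of the 120 pairs had a smaller one. The range of levels over arrays was 8.69 for the PTGS2 pair and exceeded that of 115 of the 120 pairs.

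The near-identical sequence printed as OA_S2E_ENSG73756_R and OA_S2E_ENSG73756_F gave a further reading on the same RNA. It was found by its sequence, and its R spot was also the probe most alike to the PTGS2 probes among the 11547 others kept, with Pearson r = 0.988 across the 17 arrays and 0.973 across the 14 arrays without MP. The R spot read 4.85, 4.16 and 4.44 in the 3 MP arrays and 0.93, -0.97, -2.66 and 1.08 in the 4 B arrays, so that B replicates 1 and 4 were again above replicates 2 and 3. It read -2.05, -2.65 and -1.09 in MoDC, -1.14, -3.08 and -2.44 in XCR1- DC and -3.91 in XCR1+ DC. In pDC it read -6.62, -7.70 and -3.83, the first and second of these not above background.

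Over the 15 arrays with the R spot above background, its difference from the mean of the 2 PTGS2 probes varied with an SD of 0.32, which is 1.80 times the SD of the gap between the identical spots. In the pairs without MP the R spot was called in 3 of 6, B over pDC (5.64, SE 0.94, limma adjusted p = 0.00134), MoDC over pDC and XCR1- DC over pDC, the pairs called with the PTGS2 and PGHS2 probes. The code in the probe name has the form of a shortened human gene identifier, and the tables used here pair that code with no gene, so whether these are further probes of PTGS2 was not settled.

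The F spot of this sequence differed from the R spot by between -0.34 and 0.58 on 16 arrays and by 9.72 on pDC replicate 1, where it had an intensity of 2438 against 2.89 for the R spot. On the same array the PTGS2 and PGHS2 spots had intensities of 2.80 and 1.92, so 3 of 4 spots were at background and the F spot was bright without an outlier flag. With that array included, the F spot was called in 0 of the 6 pairs (unadjusted p under 0.05 in 0 of the 6), and without it in 2 of 6, B over pDC and MoDC over pDC, as was the R spot. Without that array the F spot correlated with the mean of the PTGS2 probes at r = 0.996 across 16 arrays, and with it at 0.707.

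The spread of the PTGS2 probes between replicates differed by subset. In B their SD of 1.80 exceeded that of 97.4% of the probes kept, and in XCR1- DC the SDs of 0.94 and 0.87 exceeded 98.0% and 97.5%. In pDC the SDs of 2.08 and 2.26 exceeded those of 98.5% and 98.8% of probes, with spots at background among them. In MP and MoDC the SDs were lower than those of most probes, exceeding 40.7% and 48.9% of them in MP and 23.6% and 33.5% in MoDC.

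Some other genes also read higher in B replicates 1 and 4 than in replicates 2 and 3. PTGS1 read 4.38, 1.34, 0.22 and 3.94 in B replicates 1 to 4, high in replicates 1 and 4 and lowest in replicate 3, as PTGS2 was. The macrophage markers CSF1R, the receptor of the macrophage growth factor, and ITGAM, the CD11b integrin chain, read -3.81, -5.90, -6.31 and -3.43 and -3.98, -4.86, -5.37 and -4.11, again higher in replicates 1 and 4. CD14 did not separate these arrays, at -0.80, -1.52, -1.14 and -1.19 with 1 probe and -2.92, -3.18, -1.86 and -2.94 with the other, and the B cell marker CR2 was level between 4.20 and 4.25.

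Of the 12 macrophage markers listed, 3 had a probe, and their summed signal, relative to the 75th percentile, was 0.399 to 0.708 in B and 39.9 to 115 in MP. CD14, by which MP were sorted, made up most of this sum. In MP, CSF1R read -0.71, -0.51 and -0.07 and ITGAM -2.28, -1.59 and -1.35. Both were closer to their B levels than CD14 was. CSF1R was well above background on 2 of 4 B arrays and ITGAM on 3 of 4. The part of macrophage RNA in the B values of PTGS2 was not tested.

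Of 40 other genes of prostaglandin and leukotriene synthesis, transport and response, 5 had a named probe, and 4 passed the filter on dim probes. PTGS1, the constitutive cyclooxygenase, was the only other synthase of prostaglandin H2. It read 3.48, 0.91 and 0.20 in MP, -3.96, -3.08 and -1.33 in pDC, -2.70, -3.19 and -2.67 in MoDC, -0.51, -0.50 and -0.83 in XCR1- DC and -2.30 in XCR1+ DC. MP and B overlapped widely in PTGS1, whereas for PTGS2 every MP array lay above every B array. MP exceeded pDC in PTGS1 by 4.32 (SE 1.03, limma adjusted p = 0.00527) and MoDC by 4.38 (SE 1.03, limma adjusted p = 0.00571). The differences from B (-0.94, SE 0.96, limma adjusted p = 0.552) and from XCR1- DC (2.14, SE 1.03, limma adjusted p = 0.193) were not called, although every MP array lay above every XCR1- DC array.

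PPARG, the nuclear receptor for which prostaglandin J2 derivatives are ligands, was highest in MoDC, at 2.91, 3.39 and 2.90. It read -0.24, -1.24 and -0.45 in MP, which was below MoDC (-3.71, SE 0.43, limma adjusted p = 2.73e-05) and above B (2.58, SE 0.40, limma adjusted p = 0.000226) and XCR1- DC (2.26, SE 0.43, limma adjusted p = 0.00365). The last of these calls ended with slide as a block, at a difference as large (2.37, adjusted p = 0.147). Between MP and pDC the difference was 0.03.

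SLCO2A1, the prostaglandin uptake transporter, was well above background on the 3 MoDC arrays alone, at -2.15, -1.48 and -5.08, and on 0 of the 3 MP arrays. It passed the filter on dim probes through MoDC alone, so that its difference from MP was set by the filter and is described only. It was at least 3.85-fold higher in MoDC than in MP, a bound taken from the MoDC mean over the mean of the lowest signals that stood well above background on each MP array. With a normexp background the difference was not called (adjusted p = 0.158).

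PTGDS, a prostaglandin D synthase, was dim, above background on 1 of 3 MP arrays, and not called in any MP pair. PTGFR, the prostaglandin F receptor, was above background on 3 of 17 arrays (1 of pDC, MP and MoDC each) and was not tested. The terminal prostaglandin E synthases, the prostaglandin E receptors and the lipoxygenases of the list had no named probe here, so PTGS2 could not be set beside the enzymes that act after it.

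SLCO2A1 is left out of the counts that follow. Over the other 3 genes tested MP was higher in 1 and lower in 0 against B (PPARG; 11.5% of all probes were higher and 13% lower), higher in 1 and lower in 0 against pDC (PTGS1; 13% and 13%), higher in 1 and lower in 1 against MoDC (PTGS1 and PPARG; 14.6% and 11.4%) and higher in 1 and lower in 0 against XCR1- DC (PPARG; 5.14% and 6.29%). The median MP difference over the 3 genes was -0.94, 0.03, -0.57 and 2.14 against these subsets in turn, beside medians over all probes of -0.11, -0.06, 0.23 and -0.09. The MP pairs share the same 3 MP arrays.

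PTGS2 is known as 1 of many genes that inflammatory signals raise in phagocytes, so genes of that response were described beside it. Of 62 such genes, 15 had a named probe and 13 passed the filter. Against B, MP was higher in 9 and lower in 1 (all probes 11.5% and 13%), and against pDC higher in 9 and lower in 0 (13% and 13%). Against MoDC it was higher in 3 and lower in 6 (14.6% and 11.4%), and against XCR1- DC higher in 3 and lower in 1 (5.14% and 6.29%). IL6 is among the genes lower in MP in these counts, and against B and XCR1- DC it is the only one. It was at background on every MP array and passed the filter through MoDC and XCR1- DC. Its lower calls against these 2 subsets were thus set by the filter and are no result. The median difference was 2.62, 3.60, -1.50 and 0.64, beside -0.11, -0.06, 0.23 and -0.09 over all probes. With slide as a block, 3 of the 4 calls against XCR1- DC, which shared no slide with MP, were lost, those of IL1B and IL10 at differences that were no smaller (4.29, adjusted p = 0.135, and 3.99, adjusted p = 0.15) and that of IL6 at a smaller one (-1.14, adjusted p = 0.846), and the call of IL1A remained. With the replicate number as a block, ICAM1 was no longer called against B (adjusted p = 0.0739) and IL18 was called lower in MP than in MoDC (adjusted p = 0.0139). The 12 genes called in at least 1 MP pair were IL1A, IL1B, IL6, IL10, IL18, TNF, CXCL8, CXCL10, ICAM1, VEGFA, TLR2 and ZFP36, and CXCL1 was called in 0.

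Against MoDC, the genes higher in MP were IL10, CXCL10 and ZFP36. Those lower in MP were IL1A, IL1B, TNF, CXCL8 and VEGFA, and IL6 by a call that the filter set. When MP and MoDC alone were fitted, the calls of TNF (adjusted p = 0.0662), ZFP36 (0.0681), VEGFA (0.0853), IL10 (0.0964) and IL1B (0.104) were lost. The differences themselves were the same in that fit. The PTGS2 probes read higher in MP than in MoDC on every array. IL1A, interleukin 1 alpha, read -2.06, -2.77 and -2.05 in MP and 3.87, 3.15 and 3.30 in MoDC (MP minus MoDC -5.73, SE 0.88, limma adjusted p = 0.000292). CXCL8, the neutrophil-attracting chemokine interleukin 8, read 0.23, 3.77 and 3.44 in MP and 7.04, 7.30 and 9.20 in MoDC (-5.36, SE 0.92, limma adjusted p = 0.000657). IL1B read 1.35, 0.80 and 2.64 in MP and 5.39, 5.09 and 2.23 in MoDC, with 1 overlap, and its call (-2.64, SE 0.70, limma adjusted p = 0.0123) was lost without MP replicate 2 (adjusted p = 0.058) and without MoDC replicate 2 (adjusted p = 0.0544).

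IL6 was not above background on any MP array and passed the filter through MoDC and XCR1- DC. Its differences between MP and these 2 subsets were thus set by the filter and are described only. IL6 was at least 2.57-fold higher in MoDC, 1.25-fold in XCR1- DC and 2.24-fold in B, with bounds taken as for SLCO2A1. Against B it was called (limma adjusted p = 0.00187). The calls against MoDC and B were lost with a normexp background (limma adjusted p = 0.435 and 0.479). They were also lost, as an alternative chosen after seeing the data, with signals at background set to the floor of their array (limma adjusted p = 0.132 and 0.187). VEGFA, the vascular growth factor, was above background on 1 of 3 MP arrays and lower than in MoDC (-2.77, SE 0.86, limma adjusted p = 0.0261), which was lost without MP replicate 1, MP replicate 3 or MoDC replicate 1 (adjusted p from 0.084 to 0.115) and with a normexp background (adjusted p = 0.223).

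CXCL10, an interferon-induced chemokine, was the member of this group with the widest excess in MP over the highest other replicated subset, at 4.27, 2.61 and 4.10 in MP against 1.75, 1.14 and 1.38 in XCR1- DC (2.24, SE 0.98, limma adjusted p = 0.156). That difference passed the threshold with a normexp background (adjusted p = 0.0411), with the series table (adjusted p = 0.0307) and with these subsets alone in the fit (adjusted p = 0.0163). It read -1.94, -1.69 and 0.76 in MoDC, below MP (4.62, SE 0.98, limma adjusted p = 0.00291). In the XCR1+ DC array it read 4.75, above every MP array.

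Beside the MP levels stand the markers of other cells that a CD14 sort of spleen could hold. LTF, the neutrophil granule protein lactoferrin and the single neutrophil marker of 12 with a probe, read -2.75, -0.99 and -3.41 in MP and 1.54, -0.20 and 0.96 in MoDC. No platelet or stromal marker listed had a probe. Of 5 conventional DC markers with a probe, BATF3, CADM1, FLT3 and XCR1 were above background on every MP array and CLEC9A on 0. Their MP means were 2.02, -0.94, -1.20 and -2.76 for the first 4. In XCR1- DC these means were 2.41, -1.54, 1.35 and -2.16. HBB, the erythrocyte marker, was above background on 0 MP arrays and on every pDC and XCR1- DC array. CR2 stood at -6.17, -4.65 and -1.26 in MP and CD3D, part of the T cell receptor complex, at -2.23, -3.22 and -0.92. CD3E, another chain of that complex, read 0.00, -0.71 and 0.92 in MP. Both also gave signal in B, from 1.93 to 2.72 for CD3D and from 1.03 to 1.55 for CD3E. CD14 itself read 5.29, 6.84 and 6.23 in MP and 5.87, 6.03 and 6.75 in MoDC with 1 of its 2 probes. With the other it read 1.19, 3.48 and 2.33 in MP and 2.18, 2.34 and 1.28 in MoDC, so these subsets overlapped in CD14 with both probes and did not overlap in PTGS2. The pDC arrays had the highest CD3D, at 3.70, 2.94 and 3.02, and the highest CD3E, at 4.64, 3.12 and 4.74, beside TCF4 (the pDC transcription factor) at 1.07, 0.71 and 1.78. TCF4 was at similar levels in B (0.55 to 1.09) and XCR1- DC (0.53 to 0.83). GNLY, the cytotoxic granule protein granulysin listed as an NK cell marker, read 2.11, 4.97 and 3.08 in pDC and at most 0.23 on every other array. The part of other cell types in these levels was not tested.

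Among genes with a symbol, the patterns most like the mean of the 2 PTGS2 probes over the 17 arrays were those of IL10 (r = 0.922), ACVRL1 (0.83), CSF1R (0.818), MCL1 (0.812) and IL15 (0.79). The points of these correlations share the scaling of each array. Over the 14 arrays without MP they were 0.875, 0.722, 0.595, 0.727 and 0.655, IL10 having the highest of the 271 named probes. PTGS1 reached 0.709 over all arrays and 0.741 without MP.

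IL10, the anti-inflammatory cytokine, read 1.99, 3.03 and 0.55 in MP, -0.01, -0.56, -2.28 and -0.56 in B, -0.05, -0.13 and 0.06 in MoDC, -2.24, -1.25 and -1.72 in XCR1- DC, -2.80 in XCR1+ DC and -4.31, -4.09 and -2.58 in pDC. Its subsets followed the order of PTGS2 except that MoDC stood above B. IL10 was tested as a member of the inflammatory list. Its likeness to PTGS2 was found over arrays that include MP. An excess in MP was thus partly built into that choice, and the tests lend the likeness no support. IL10 was higher in MP than in B (2.71, SE 0.61, limma adjusted p = 0.00376), pDC (5.52, SE 0.65, limma adjusted p = 1.83e-05) and XCR1- DC (3.59, SE 0.65, limma adjusted p = 0.00277), the last of which was not called with slide as a block (3.99, adjusted p = 0.15). The difference from MoDC (1.90, SE 0.65, limma adjusted p = 0.0422) lost its call under 14 of 27 alternatives, among them each of the MoDC arrays left out and the replicate number as a block (adjusted p = 0.0555). MCL1, a survival factor of the BCL2 family, had subset means from 4.77 in pDC to 6.79 in MP.

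Only 5 of the 11547 other probes kept reached r = 0.9 with the PTGS2 probes. They were the R spot of the near-identical sequence, IL10 and 3 probes with no symbol in the files, and 271 of the probes compared had a symbol.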

How the data were processed

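Labelled RNA from 17 sheep samples was hybridised to custom one-colour Agilent arrays, 1 per sample. The deposited files hold Feature Extraction output (version 10.7.3.1 for 12 arrays and 10.10.1.1 for 5, per the file headers): linear intensity per spot after background correction, the spot and local background intensities, and flags (other values) for outlier, saturated and well-above-background spots. A series table deposited by the authors holds log2 values whose normalization it does not state. The sources used here name limma as a tool, with no version. Its rows, numbered without probe names, were matched by the alphabetical order of probe names (r from 0.969 to 0.988 with the own array, best for 17 of 17), and it served as an alternative only.

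Each array held 15744 spots, 536 of them controls. Outlier-flagged spots (273) were left out, which removed 218 of 15060 probes. Signals were divided by the 75th percentile of the array and averaged per probe on the log2 scale. A probe was kept (11549) if each array of 1 subset or more had over 50% of its spots well above background. Between 61.1% and 80.2% of spots per array were well above background, and the number of arrays limits the precision. The probes carry no genome build or mapped coordinates in the files, and the RefSeq table (ARS-UI_Ramb_v3.0) was used for names only; 424 probes had a symbol.

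Subsets were compared with limma 3.58.1 in R 4.3.3 (group means over 17 arrays, Benjamini-Hochberg within a pair) and gaps between spots with exact permutation in Python 3.11.15. Named were both PTGS2 probes, every eicosanoid gene with a probe, the inflammatory genes called in an MP pair with values for the 6 with the largest difference from the highest other subset, and the 5 named genes most like PTGS2. IL10 has its values as the most alike gene. The near-identical probe, TCF4, GNLY, CD3D, CD3E, CD28, HBB and the conventional DC markers were singled out after values were seen. For genes with several probes, counts took the probe of highest sum over the arrays. The members and lists were chosen with earlier results of these data known. The labels do not say that all replicates are separate animals, so p-values measure the spread between these samples. Replicates 1 to 3 of B, pDC, MP and MoDC shared a slide by number, per the file headers, and their deviations from the subset means correlated between same-numbered arrays (18 pairs, r from 0.0995 to 0.559, 17 over 0.1), so these numbers were taken to pair arrays by slide. XCR1- DC shared numbers but no slide with them (12 pairs, r from -0.15 to 0.0939). Alternatives were quantile normalization, normexp background (offset 50, on median spot signals), the series table, no dim filter, slide or replicate number as a block, slide as a random block, only the subsets compared, outlier spots kept and each array left out; setting signals at background to the array floor and averaging identical probes were chosen after seeing the data.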

Additional observations from a re-analysis of the deposited data

Results flagged for a closer look

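CXCL1, a neutrophil-attracting chemokine, had 1 B array apart from the other 3. B replicate 1 read 8.29 and the others 7.45 to 7.56, a gap of 0.865 of the whole range against a critical value of 0.829. Of 40 probes examined in the 4 B arrays this was the single one past that value, and chance gives about 1 in 20. The mean of the PTGS2 and PGHS2 probes had a ratio of 0.54.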

How the results depend on the processing

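Over 27 alternatives the 12 tests of the PTGS2 and PGHS2 probes gave 324 values, of which 306 kept their side of the threshold, 13 lost a call, 5 gained one and 0 changed sign. All 18 changes concerned XCR1- DC against pDC or B. The count of calls was 4 to 8 with single arrays left out (6 as reported). It was 4 with slide as a block or as a random block, and 6 with normexp, which lost both XCR1- DC against pDC calls (adjusted p = 0.274 and 0.134) and gained both against B. Leaving out pDC replicate 1, pDC replicate 2 or XCR1- DC replicate 1 gave 4 and B replicate 3 gave 8. The eicosanoid count, SLCO2A1 included, was 5 to 6 and 6 throughout when arrays were left out. With the processing used for the results it was 6, or 5 without SLCO2A1 as given there. The inflammatory count, IL6 included, was 28 to 33 (32 as reported) and 27 to 32 when arrays were left out. Of 1836 values of list genes, 1745 kept their side of the threshold, 76 lost and 14 gained a call, and 1 called difference changed sign, IL6 in MP against XCR1- DC, which was 0.016 with normexp against -2.19; the cause was not tested. Among all 1836, 29 changed sign, the other 28 of them differences not called as reported. The number of subsets with a spot gap past the threshold was 0 and stayed 0 when arrays were left out, but was 1 with normexp and 1 with the series table, in both the pDC (exact permutation adjusted p = 0.0147 each, lowest adjusted p over the other settings 0.125 to 0.757), where spots were at background; the cause was not tested. With the replicate number as a block the counts were 6, 6 and 31, and 0 for the gap; the block changed the calls of IL10, ICAM1 and IL18 given with their results and no other call of a probe or list gene. Normexp moved the median of all probes by up to 1.12, the series table by up to 0.64 and quantile normalization by up to 0.37. Setting signals at background to the array floor and averaging identical probes, both chosen after seeing the data, gave 6 and 6 calls for PTGS2, 6 and 6 eicosanoid calls and 28 and 32 inflammatory calls. Spots at background limit the pDC levels.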

Other observations

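Disagreement between spots of identical sequence was rare but not evenly placed. Over 169 such pairs kept, the PTGS2 pair left out, 33 of 2497 array values with a spot above background (1.32%) had a gap over 2 on the log2 scale, spread over 26 pairs. Of these 33, 9 were on pDC replicate 1, the array on which the F spot of the near-identical sequence was bright.

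Probes of different sequence for 1 named gene were well above background together on at least 6 arrays for 5 genes. The SD over arrays of the difference between such probes was 1.26 for CD14, 0.93 for TNF, 0.72 for IRF8, 0.57 for BAMBI and 0.49 for IGF2, beside 0.18 for the 2 spots of the PTGS2 sequence.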
